A study of Mus musculus with 6 samples.

Results

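Coenzyme Q (ubiquinone) synthesis is described here through 10 genes of mouse CD8+ T cells: Pdss1, Pdss2, Coq2, Coq3, Coq4, Coq5, Coq6, Coq7, Coq8a and Coq9. They were chosen by name, with the PTMA-minus-vector fold changes of ubiquinone genes in these same libraries already known, so every difference between the groups below is a description and supports nothing. All 10 have a row among the 27480 genes of the deposited table, and all 10 were among the 16592 genes that passed the filter on low counts. The cells were OT1 CD8+ T cells, cytotoxic lymphocytes with a transgenic T cell receptor for an ovalbumin (OVA) peptide. One group carried a construct to overexpress PTMA, the acidic nuclear protein prothymosin alpha (n = 3 libraries), and the other the empty overexpression vector (n = 3 libraries). Both groups were labelled wild type, and OVA peptide had been given to both for 48 h. The labels do not give the species or promoter of the PTMA construct, or whether libraries came from separate mice or cultures, so the errors measure only the spread between these libraries. According to its title, the study concerns PTMA, mitochondrial integrity and the antitumour function of these cells.

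Coenzyme Q is a lipid of the inner mitochondrial membrane that carries electrons from complex I, complex II and several other dehydrogenases to complex III. It is made in the mitochondrion by joining a long isoprenoid tail to a ring derived from tyrosine, after which the ring is modified stepwise by enzymes that assemble into a complex. In dividing lymphocytes it also accepts the electrons of dihydroorotate dehydrogenase, the mitochondrial step of pyrimidine synthesis.

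Total counts ran from 54989408 in vector 1 to 66767589 in PTMA 2, and the other 4 libraries had 62995824 to 65640178. FPKM are used as deposited, as fragment counts scaled to gene length and library size. Ptma itself had 709, 819 and 791 FPKM in PTMA 1 to 3 and 516, 504 and 680 FPKM in vector 1 to 3. The difference, PTMA minus vector, was 0.44 on the log2 scale (SE 0.13), higher in 3 of 3 PTMA libraries, and it missed the threshold across all genes (edgeR quasi-likelihood test, Benjamini-Hochberg adjusted p = 0.951). T cell receptor and CD8 genes were abundant in both groups, with 6012 to 6426 summed CPM (counts scaled to library size with TMM factors) in PTMA and 5884 to 6441 in vector libraries. Of 5 mature dendritic cell markers 4 had a row, with 7.94 to 11.1 summed CPM in PTMA and 1.11 to 2.43 in vector libraries. All 6 oocyte markers had a row, with 0.801 to 2.22 summed CPM in PTMA libraries, where 2 of them were at 0, and 17.8 to 28.6 in vector libraries. B cell markers had 5.37 to 6.69 summed CPM in PTMA and 3.95 to 4.95 in vector libraries. The NK cell list, Ncr1, Klrb1c and Eomes, had 40.9 to 45.5 summed CPM in PTMA and 48.3 to 50.1 in vector libraries. This sum was not split by gene, so it is not read as a number of NK cells. The dendritic cell, oocyte, B cell and NK cell sums thus moved with the groups. Those of the T cell receptor and CD8, CD4 T cell, myeloid, erythroid, and stroma and adipose markers overlapped between the groups. The part of any of these cell types in the values below was not tested.

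The 10 genes differed in level far more than the groups did. The most abundant were Coq9, at 25.1 ± 2.2 FPKM (SD, n = 6 libraries), and Coq2, at 24.3 ± 2.3 FPKM (SD, n = 6), and the least abundant was Pdss2, at 1.61 ± 0.17 FPKM (SD, n = 6). Coq9 and Coq2 changed places between libraries, each being the higher in 3 of 6, and together they made up 49.6 to 51.7% of the summed FPKM of the 10 genes in every library. Coq5 followed at 12.9 ± 1.1 FPKM (SD, n = 6) and did not overlap with its neighbours in the order. Coq8a averaged 8.58 FPKM, Coq6 7.81 FPKM and Coq3 7.32 FPKM over the 6 libraries. On FPKM Coq8a lay above Coq6 in 6 of 6 libraries, whereas Coq6 and Coq3 changed places. Coq4, Pdss1 and Coq7 could not be ordered on FPKM, at 3.16, 3.13 and 3.10 FPKM, and their ranges overlapped. Among all tested genes the mean FPKM of Coq9 stood at the 86.3 percentile, that of Coq7 at 50.0 and that of Pdss2 at 40.2.

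This order depended on the gene length used, most of all for Coq7, a check added after the values were seen. The length implied by counts, total counts and FPKM was taken as the median over the 6 libraries. Single libraries differ from it, so the deposited FPKM are not scaled by total counts alone. For all 10 genes it was 1.10 times the summed length of all annotated exons in GENCODE M21. Across the genes the deposited FPKM thus follow the length of all annotated exons. Coq7 has the longest such sum of the 10, 6434 bases, but its principal transcript has 914 bases, the shortest of the 10. Per kilobase of all exons Coq7 stood at 3.45 CPM, rank 9 of 10, and per kilobase of principal transcript at 24.3 CPM, rank 3. Coq9 and Coq2 kept ranks 1 and 2, at 47.7 and 40.7 CPM per kilobase of principal transcript, and Pdss2 kept rank 10, at 5.04. Coq6 and Pdss1 kept their ranks too, but Coq6, at 15.4, then stood above Coq8a, at 12.5, and Pdss1, at 9.03, above Coq4. Coq3, Coq4, Coq5 and Coq8a each moved by 1 or 2 ranks. Which transcripts the reads came from was not tested, so the order of levels is uncertain for these genes and for Coq7 most of all, while the comparison between groups does not use the length.

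**Figure D1:**
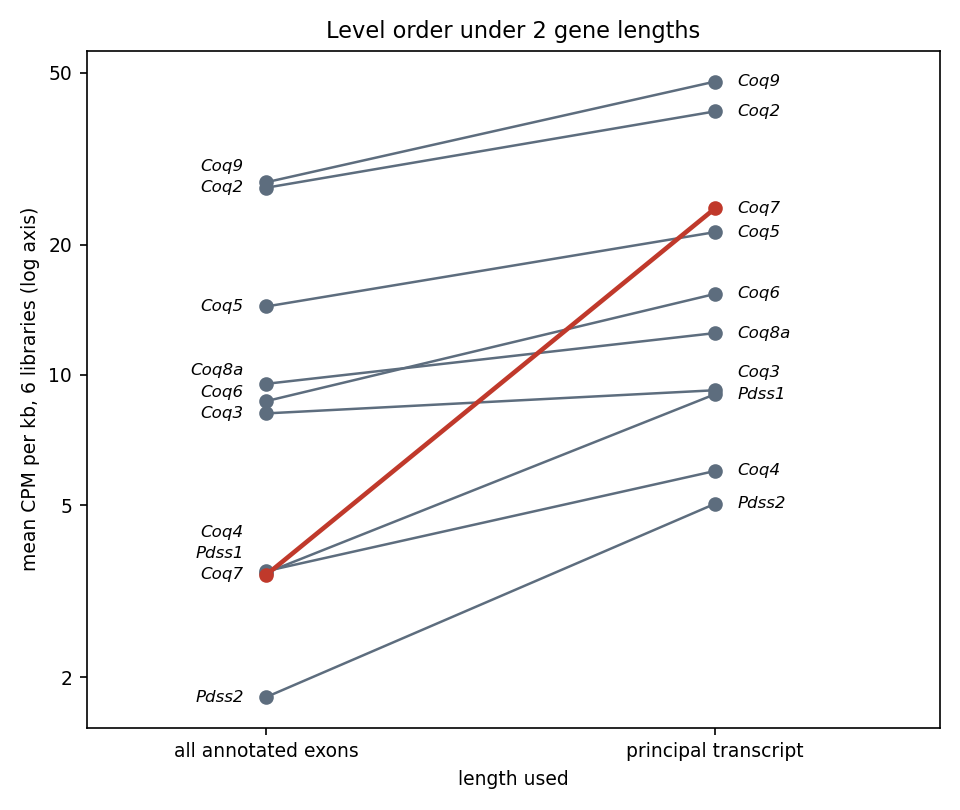
Mean level of each gene over the 6 libraries, in TMM-scaled CPM per kilobase on a log axis, with the length of all annotated exons (left) or of the principal transcript (right). Lines join the same gene. Coq7, in red, moves to rank 3 with 24.3 CPM per kilobase on the right, against rank 9 with 3.45 on the left.

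The tail of coenzyme Q is made by an enzyme of paired subunits, PDSS1 and PDSS2, which lengthens isoprenoid chains. Pdss1 (chromosome 2, 22895522 to 22940266, plus strand, GRCm38) had 3.71, 3.20 and 2.85 FPKM in PTMA 1 to 3 and 2.96, 3.15 and 2.91 FPKM in vector 1 to 3. PTMA 1 was the highest library and PTMA 3 the lowest, so the PTMA range enclosed the vector range. The log2 fold change, PTMA minus vector, was 0.11 (SE 0.13), with 0.01 without PTMA 1 and 0.22 without PTMA 3.

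Pdss2 (chromosome 10, 43221486 to 43464882, plus strand) had 1.44, 1.58 and 1.85 FPKM in PTMA 1 to 3 and 1.52, 1.81 and 1.49 FPKM in vector 1 to 3. The groups overlapped throughout. Its log2 fold change was 0.01 (SE 0.13), the smallest of the 10, and its sign was not stable. It was 0.09 without PTMA 1, 0.08 without vector 2, 0.03 without PTMA 2, -0.07 without PTMA 3, -0.02 without vector 1, -0.01 without vector 3. Scaling every library to one total also gave -0.01.

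Both subunit genes carry the ETS core letters CCGGAAG, the kind of element bound by GABPA (nuclear respiratory factor 2), in the window of 250 bases before to 50 after their RefSeq start. Windows were found for 9 of the 10 genes, all but Coq5, 11 windows in total. Of these, 3 held the ETS letters on either strand, those of Pdss1, Pdss2 and Coq6. Over all 32851 windows of this length 8.86% held them, and the difference was not tested. Pdss1 holds them at 2 places, both after the start, and Pdss2 at 1 place. The windows are shown because Pdss1 and Pdss2 encode parts of a single enzyme; capitals mark the ETS letters, and the strand is that of the gene (RefSeq, GRCm38.p6; chr2:22895272-22895571 for Pdss1 and chr10:43221236-43221535 for Pdss2, both on the plus strand).
Pdss1: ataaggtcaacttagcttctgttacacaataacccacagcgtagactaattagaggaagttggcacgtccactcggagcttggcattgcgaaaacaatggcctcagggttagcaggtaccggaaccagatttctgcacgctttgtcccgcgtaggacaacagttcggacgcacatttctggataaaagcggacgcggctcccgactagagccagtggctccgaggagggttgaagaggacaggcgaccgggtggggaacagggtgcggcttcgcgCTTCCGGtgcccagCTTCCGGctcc
Pdss2: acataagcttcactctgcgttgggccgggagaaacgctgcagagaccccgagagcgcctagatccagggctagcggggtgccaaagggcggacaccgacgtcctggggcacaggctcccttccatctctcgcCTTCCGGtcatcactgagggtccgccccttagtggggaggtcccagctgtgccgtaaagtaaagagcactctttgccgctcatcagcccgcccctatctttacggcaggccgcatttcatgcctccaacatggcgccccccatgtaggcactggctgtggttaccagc

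The tail is joined to the ring by the prenyltransferase COQ2, which sits in the inner membrane. Coq2 (chromosome 5, 100654723 to 100674284, minus strand) had 26.6, 25.2 and 26.8 FPKM in PTMA 1 to 3 and 20.8, 22.9 and 23.6 FPKM in vector 1 to 3. Every PTMA library lay above every vector library, the nearest pair being PTMA 2 and vector 3. The means were 26.2 ± 0.88 FPKM in PTMA and 22.4 ± 1.5 FPKM in vector libraries (SD, n = 3 each). This is a 1.16-fold higher level, or a log2 fold change of 0.22 (SE 0.08). Over the 15 alternatives, which use the same libraries, the log2 fold change was 0.17 to 0.29. Since the groups did not overlap on FPKM or on TMM-scaled CPM, leaving a library out could hardly change its sign.

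Once joined, the ring is hydroxylated and methylated. COQ6, a flavoprotein hydroxylase of the ring, acts early. Coq6 (chromosome 12, 84361657 to 84373796, plus strand) had 9.07, 7.99 and 8.42 FPKM in PTMA 1 to 3 and 6.57, 7.83 and 6.98 FPKM in vector 1 to 3. All PTMA libraries were above all vector libraries, with PTMA 2 just above vector 2. Its log2 fold change was 0.25 (SE 0.10), and 0.20 to 0.30 over the alternatives.

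COQ3 is the O-methyltransferase of the pathway. Coq3 (chromosome 4, 21879673 to 21912162, plus strand) had 7.64, 8.02 and 7.25 FPKM in PTMA 1 to 3 and 7.16, 6.62 and 7.22 FPKM in vector 1 to 3. On FPKM the groups did not overlap, but PTMA 3 and vector 3 were almost level. On TMM-scaled CPM they did overlap, with 23.9 CPM in PTMA 3 and 25.0 CPM in vector 3. Its log2 fold change was 0.12 (SE 0.10), with 0.06 without vector 2, 0.08 without PTMA 2 and 0.18 without PTMA 3.

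COQ5, the C-methyltransferase, acts between the hydroxylation steps. Coq5 (chromosome 5, 115279666 to 115296972, plus strand) had 12.4, 13.9 and 13.8 FPKM in PTMA 1 to 3 and 11.5, 14.0 and 12.0 FPKM in vector 1 to 3. Vector 2 was the highest of all 6 libraries, so the groups overlapped. Its log2 fold change was 0.10 (SE 0.09), with 0.05 without vector 1, 0.06 without PTMA 2, 0.16 without vector 2 and 0.15 without PTMA 1.

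COQ7 is the di-iron hydroxylase that acts after the C-methylation. Coq7 (chromosome 7, 118509659 to 118533301, minus strand) had 3.26, 3.41 and 2.86 FPKM in PTMA 1 to 3 and 2.67, 3.03 and 3.35 FPKM in vector 1 to 3. The groups overlapped, with vector 3 above PTMA 1 and PTMA 3. Its log2 fold change was 0.07 (SE 0.13), and it was -3.0e-03 without vector 1, 0.01 without PTMA 2, 0.17 without PTMA 3 and 0.18 without vector 3.

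The remaining proteins of the group are COQ9, COQ4 and COQ8A. COQ9 is a lipid-binding protein that presents the ring intermediate to COQ7. Coq9 (chromosome 8, 94838321 to 94854895, plus strand) had 26.0, 28.0 and 25.1 FPKM in PTMA 1 to 3 and 21.9, 26.3 and 23.2 FPKM in vector 1 to 3. Vector 2 lay within the PTMA range and the other vector libraries below it. The log2 fold change was 0.15 (SE 0.08), with 0.09 without PTMA 2, 0.10 without vector 1 and 0.20 without PTMA 3 or vector 2. That of its partner gene Coq7 was 0.07 (SE 0.13).

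COQ4 is a membrane-associated protein of the coenzyme Q complex that acts on the ring. Coq4 (chromosome 2, 29787493 to 29797935, plus strand) had 3.32, 3.36 and 3.76 FPKM in PTMA 1 to 3 and 2.64, 3.42 and 2.45 FPKM in vector 1 to 3. Vector 2 lay inside the PTMA range on FPKM and the other vector libraries well below it. On TMM-scaled CPM the lowest PTMA library, at 12.6, was just above vector 2, at 12.4. The log2 fold change of 0.30 (SE 0.13) was the highest of the 10, and it was 0.42 without vector 2 and 0.23 without vector 3. Vector libraries varied most for this gene, with a coefficient of variation of 18.3%, against 6.99% in PTMA libraries.

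COQ8A is an atypical kinase-like ATPase needed for the stability of the complex. Coq8a (chromosome 1, 180165238 to 180199602, minus strand) had 9.55, 9.12 and 8.86 FPKM in PTMA 1 to 3 and 8.47, 8.23 and 7.24 FPKM in vector 1 to 3. The lowest PTMA library, PTMA 3, was above the highest vector library, vector 1. On the log2 scale the difference was 0.20 (SE 0.08), and 0.16 to 0.26 over the alternatives.

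Coq6 and Coq8a hold the CCAAT box letters at 3 places each in a window around a RefSeq start, on one strand or the other, the most of the windows found. Of the 11 windows 3 held CCAAT on either strand, those of Coq6, Coq7 and Coq8a, against 37.4% of all windows, so the letters are common everywhere. Coq7 holds them at 2 places, while the second Coq8a window and the Coq2 window hold none. Whether the letters bear on the levels was not tested. The windows are printed to show these places, with CCAAT (or ATTGG, its other strand) in capitals, and also CCGGAAG after the start in the Coq6 window (RefSeq, GRCm38.p6; chr12:84361718-84362017 on the plus strand for Coq6 and chr1:180195971-180196270 on the minus strand for the first of 2 starts of Coq8a).
Coq6: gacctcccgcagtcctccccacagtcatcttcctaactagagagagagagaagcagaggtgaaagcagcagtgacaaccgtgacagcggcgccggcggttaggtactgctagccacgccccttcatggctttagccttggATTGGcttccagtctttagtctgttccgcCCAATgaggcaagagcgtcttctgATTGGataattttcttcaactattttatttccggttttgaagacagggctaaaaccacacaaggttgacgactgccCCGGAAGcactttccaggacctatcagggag
Coq8a: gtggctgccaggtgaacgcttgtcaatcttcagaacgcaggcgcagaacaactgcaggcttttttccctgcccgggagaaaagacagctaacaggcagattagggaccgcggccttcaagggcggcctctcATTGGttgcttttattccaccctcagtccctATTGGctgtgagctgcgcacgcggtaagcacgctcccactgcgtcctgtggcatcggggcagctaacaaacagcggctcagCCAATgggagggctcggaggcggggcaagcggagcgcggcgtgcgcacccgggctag
The NRF1 motif was in 1 of the 11 windows (Coq3, its second start) and in 4.60% of all windows, the ERR letters AAGGTCA in 1 (Pdss1) and 4.72%, the YY1 letters AAGATGG in 1 (Coq9) and 6.34%, and the E-box CACGTG in 1 (Coq4) and 7.15%. Both strands were searched for each motif, and no match overlapped another. The GC content of the 11 windows ran from 39.7% (Coq4) to 68.3% (Coq9), with a median of 56.7%, against a median of 52.7% over all windows. Their median number of CpG (C followed by G) was 18.0, against 7.00 over all windows, and the ETS letters CCGGAAG contain a CpG.

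**Figure D2:**
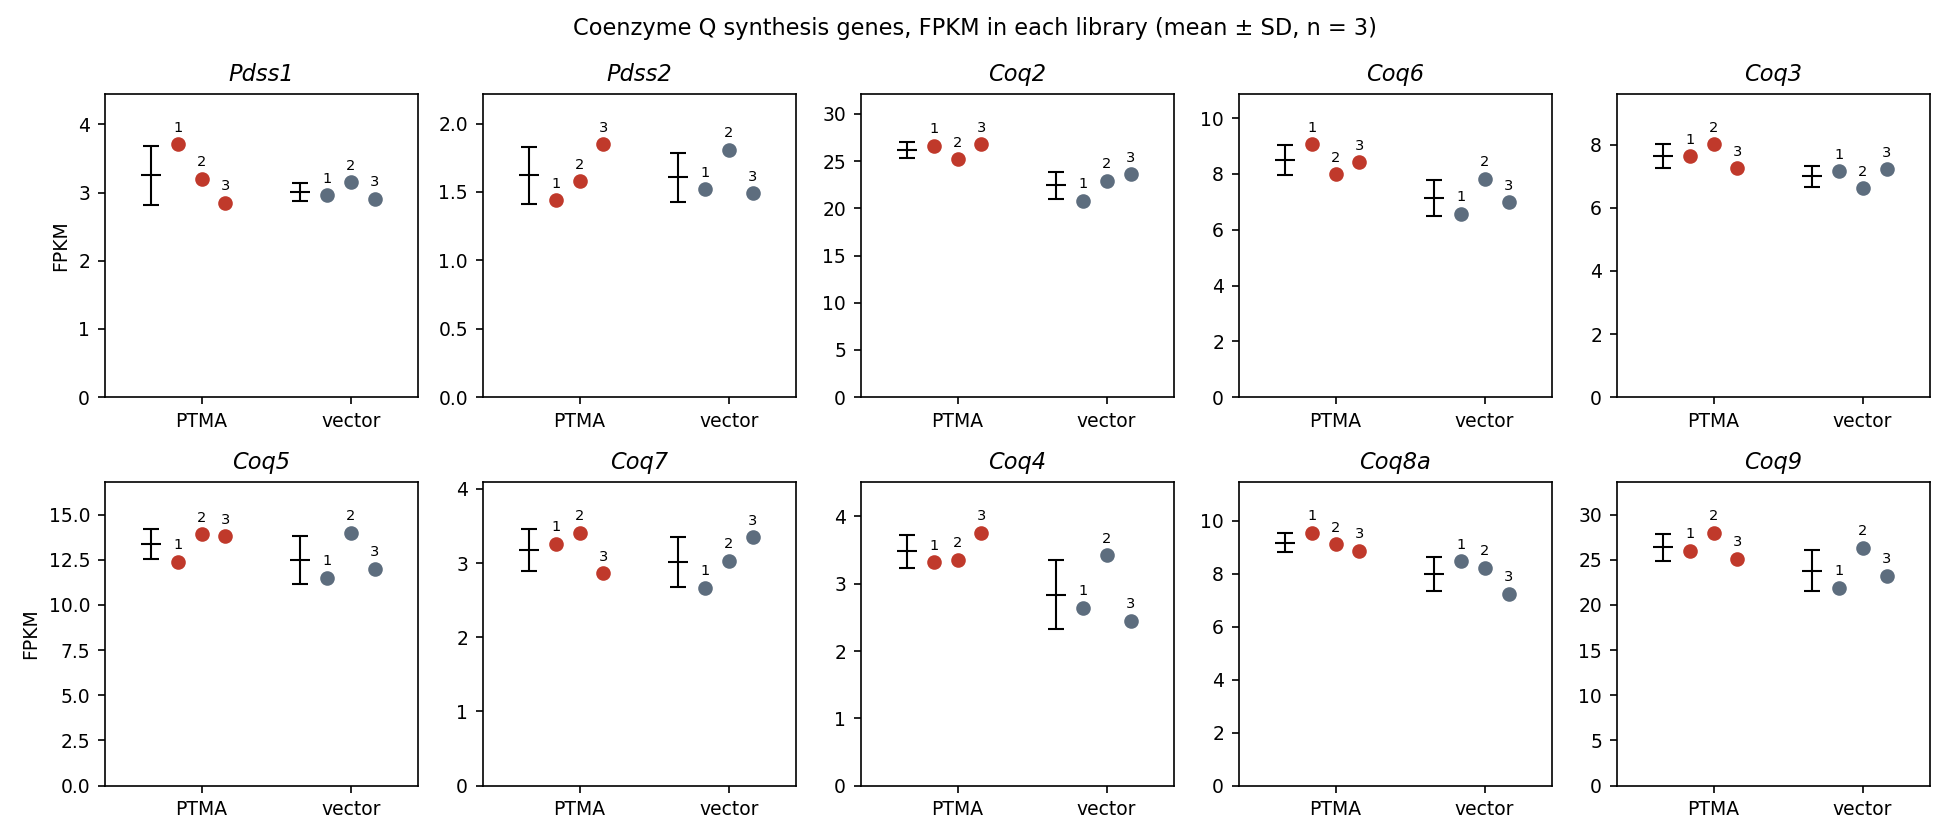
FPKM of each gene in each library (points, numbered by replicate), with the mean and SD of the group (bars, n = 3) at the left of its points, PTMA in red and vector in grey, axes from 0. Coq2, Coq6, Coq3 and Coq8a have every PTMA library above every vector library, with Coq3 nearly level at 7.25 and 7.22 FPKM, and the groups of the other 6 genes overlap.

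As a group, the 10 genes had slightly higher RNA levels in the PTMA libraries, and none of them passed the test across all genes. All 10 log2 fold changes were positive, with a median of 0.14 and a range of 0.01 to 0.30; over all genes tested 46.8% were positive and the median was -0.01. In edgeR 0 of 10 passed (adjusted p = 0.951 to 0.991), against 0.0121% of all genes, which is 2 genes, both lower in PTMA. At an unadjusted p under 0.05 there were 3 of 10 (Coq2, Coq6 and Coq8a), against 4.65% of all genes. DESeq2 called 0 of 10, against 0.235% of all genes it tested, and had 4 of 10 at an unadjusted p under 0.05, against 3.73%. Limma on log2(FPKM + 1) called 0 of 10, against 0.00912%. On FPKM every PTMA library was above every vector library for 4 of 10 genes, against 5.48% of all genes tested, and for 4 of 10 on TMM-scaled CPM, against 5.39%; 3 genes, Coq2, Coq6 and Coq8a, were in both counts. Because the genes were proposed with this comparison known, nothing is read from these shares. In bulk RNA, fewer cells of a type and less RNA per cell cannot be told apart.

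Summed over the 10 genes, the level was 103, 104 and 102 FPKM in PTMA 1 to 3 and 86.2, 97.4 and 90.4 FPKM in vector 1 to 3. The means were 103 ± 1.13 FPKM in PTMA and 91.3 ± 5.62 FPKM in vector libraries (SD, n = 3 each), 12.5% higher in PTMA. The vector libraries spread more widely on FPKM, while on TMM-scaled CPM the sums were 382 ± 9.53 in PTMA and 341 ± 11.7 in vector libraries (SD, n = 3 each). Vector 1 was lowest for 5 of the 10 genes and also had the fewest total counts; the part of depth was not tested. The median log2 fold change ran from 0.11 to 0.21 when each library was left out in turn, with 0.21 without PTMA 3 and 0.18 without vector 2. All 10 were positive without PTMA 1, PTMA 2 or vector 2, 9 without PTMA 3 or vector 3, and 8 without vector 1, where Coq7 and Pdss2 were below 0. The number of genes called over the whole table was 4 without PTMA 2, 1 without vector 3, and 0 without PTMA 3 or vector 1.

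**Figure D3:**
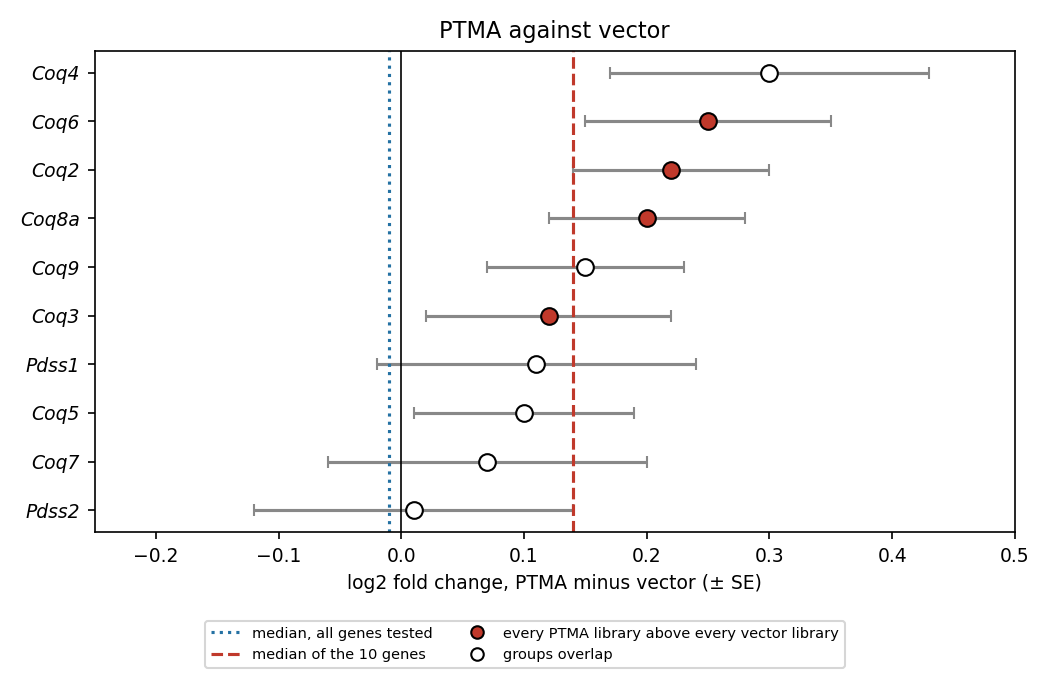
Log2 fold change, PTMA minus vector, of each gene from edgeR with its standard error. Filled points are genes with every PTMA library above every vector library on FPKM. All points lie between 0.01 and 0.30, around the median of 0.14 (dashed), and the median of all genes tested is -0.01 (dotted).

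Several of the genes share bases with an annotated neighbour on the other strand, and the use of strand in counting is not given in the sources used here, so their reads may be mixed. Coq4 shares the greatest length, since 921 of its exon bases, 27.1% of the total, are also exon bases of Trub2, a pseudouridine synthase gene. Trub2 had 4.56, 4.19 and 4.62 FPKM in PTMA 1 to 3 and 4.13, 4.66 and 3.63 FPKM in vector 1 to 3, with a log2 fold change of 0.11 (SE 0.10). On FPKM vector 2 was the highest vector library for Trub2 and Coq4, and also for Pdss1, Pdss2, Coq5, Coq6 and Coq9. Whether reads of Coq4 and Trub2 are mixed was not tested. Coq9 and Ciapin1, a cytosolic iron-sulfur assembly gene, start 37 bases apart on opposite strands but share only 38 exon bases, 1.24% of those of Coq9. Ciapin1 had 11.4, 11.7 and 11.0 FPKM in PTMA 1 to 3 and 9.84, 11.4 and 11.0 FPKM in vector 1 to 3, and a log2 fold change of 0.08 (SE 0.08). Coq6 shares 128 exon bases with Fam161b, Coq8a 366 with Cdc42bpa and Pdss1 194 with Abi1, which are 4.07%, 6.91% and 4.57% of the exon bases of each. Fam161b and Cdc42bpa were nearly silent, at no more than 0.183 and 0.0346 FPKM in any library, while Abi1, an actin regulator, had 28.0 to 34.6 FPKM in PTMA and 29.7 to 32.8 FPKM in vector libraries, far above Pdss1. The pseudogenes and non-coding genes overlapping Pdss1, Pdss2, Coq2 and Coq5 had at most 76 counts in any library. Among them the pseudogene A130006I12Rik starts 214 bases from Pdss1 on the other strand. It shares 207 exon bases with Pdss1, 4.87% of those of Pdss1, and had at most 17 counts.

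Around the 10 genes, 5 lists of genes that feed, support or use coenzyme Q were read from the same fit. No member of any list passed in edgeR, DESeq2 or limma, against 0.0121%, 0.235% and 0.00912% of all genes. The first list held genes for the ring precursor, cofactors, transport and reduction, of which 12 of 15 were tested. Of these 9 were positive, against 46.8% of all genes tested, with a median log2 fold change of 0.10. At an unadjusted p under 0.05 there were 2, against 4.65% of all genes. Fdx2, a mitochondrial ferredoxin, had 11.0, 15.1 and 12.1 FPKM in PTMA 1 to 3 and 10.6, 6.84 and 8.75 FPKM in vector 1 to 3, with the highest log2 fold change of the list, 0.54 (SE 0.19). Its groups did not overlap, with every PTMA library above every vector library, as for 5.48% of all genes tested. Fdxr, the reductase that supplies mitochondrial ferredoxins with electrons, had 20.5, 19.6 and 21.6 FPKM in PTMA 1 to 3 and 17.2, 19.5 and 17.0 FPKM in vector 1 to 3 (log2 fold change 0.20, SE 0.07). In yeast this ferredoxin chain supplies the COQ6 step. Stard7, a lipid transfer protein, averaged 26.6 ± 2.9 FPKM in PTMA and 24.9 ± 0.45 FPKM in vector libraries (SD, n = 3 each). Parl, an inner membrane protease that cleaves STARD7, averaged 21.8 ± 0.21 FPKM in PTMA and 19.3 ± 1.3 FPKM in vector libraries (SD, n = 3 each). Aifm2, the reductase of coenzyme Q outside mitochondria, had the lowest log2 fold change, -0.16 (SE 0.16). Coq8b, the paralog of Coq8a, had 4.52, 4.39 and 4.41 FPKM in PTMA 1 to 3 and 3.56, 4.73 and 4.12 FPKM in vector 1 to 3, and its groups overlapped. Nqo1, a cytosolic quinone reductase, did not pass the filter and had at most 0.308 FPKM. Hpd and Tat, genes of tyrosine breakdown, had no row under these names.

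The mevalonate pathway supplies the isoprenoid units of the tail. Of its 12 genes 7 were positive, against 46.8% of all genes tested, with a median log2 fold change of 0.05. At an unadjusted p under 0.05 there was 1, against 4.65% of all genes. The 3 most abundant were Acat2 at 32.9 ± 1.5 FPKM in PTMA and 30.0 ± 3.1 FPKM in vector libraries, Hmgcs1 at 31.9 ± 1.1 FPKM in PTMA and 32.4 ± 1.6 FPKM in vector libraries, and Fdps at 32.6 ± 0.40 FPKM in PTMA and 30.8 ± 1.5 FPKM in vector libraries (SD, n = 3 each). The extremes were Fdft1, which draws isoprenoids into sterol synthesis, with 0.19 (SE 0.07), and Mvd, a mevalonate pathway decarboxylase, with -0.14 (SE 0.09). Fdps makes the farnesyl unit from which PDSS1 and PDSS2 start.

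The most abundant genes for users of coenzyme Q had higher FPKM than any gene for its synthesis. Among 12 tested genes of enzymes that pass electrons to it, 10 were positive, against 46.8% of all genes tested. Their median log2 fold change was 0.09, with 0 at an unadjusted p under 0.05, against 4.65% of all genes. Sdhd, Etfb and Sdhb had the highest levels, at 156 ± 9.5, 137 ± 4.2 and 127 ± 5.7 FPKM in PTMA libraries and 147 ± 13, 129 ± 4.9 and 117 ± 4.1 FPKM in vector libraries (SD, n = 3 each). Prodh (0.44, SE 0.34) and Chdh (-0.45, SE 1.40) had the extreme values and were near silent, at no more than 0.484 and 0.0537 FPKM. Dhodh, the pyrimidine enzyme, had 6.67, 7.02 and 6.22 FPKM in PTMA 1 to 3 and 5.63, 6.59 and 6.39 FPKM in vector 1 to 3, with overlapping groups.

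Core subunits of complex I, which gives electrons to coenzyme Q, had 6 of 7 positive, a median of 0.13 and 1 at an unadjusted p under 0.05. Of all genes tested, 46.8% were positive and 4.65% had an unadjusted p under 0.05. Ndufs7, at the quinone site, averaged 66.6 ± 2.1 FPKM in PTMA and 58.6 ± 3.3 FPKM in vector libraries (SD, n = 3 each; log2 fold change 0.19, SE 0.07). Ndufs8 had a log2 fold change of 0.14 (SE 0.07) and Ndufs1, the lowest of the list, -0.07 (SE 0.08). In complex III, which takes the electrons up, 8 of 10 were positive, with a median of 0.07. At an unadjusted p under 0.05 there was 1, beside the same shares of all genes. Uqcrc1 had the highest value, 0.18 (SE 0.08), and Uqcrb the lowest, -0.02 (SE 0.16). Uqcr10 averaged 147 ± 10 FPKM in PTMA and 146 ± 20 FPKM in vector libraries (SD, n = 3 each). The abundant mt-Cytb, encoded by mitochondrial DNA, had 2340, 2927 and 2872 FPKM in PTMA 1 to 3 and 2184, 2199 and 3105 FPKM in vector 1 to 3, with vector 3 above all PTMA libraries. The differences between these lists and the 10 genes were not tested.

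**Figure D4:**
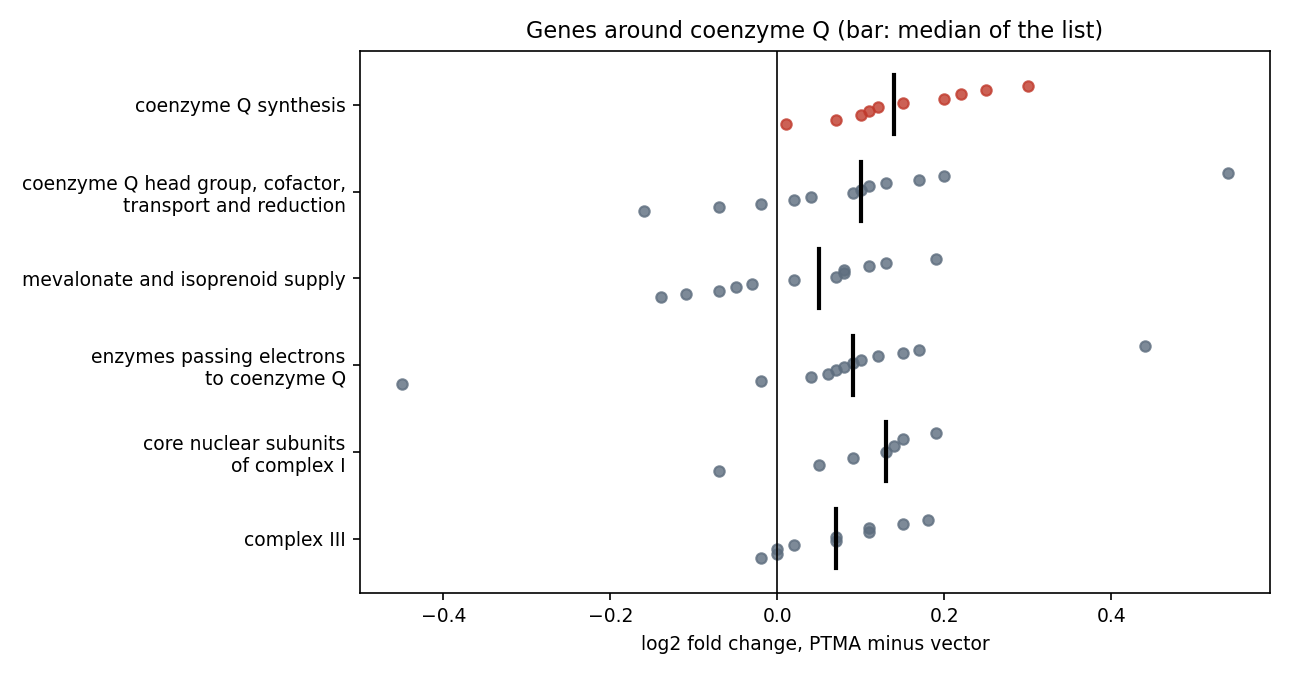
Log2 fold change, PTMA minus vector, of each tested gene (points) in the list of 10 synthesis genes (red) and in 5 related lists (grey), with the median of each list as a bar. Medians run from 0.05 for isoprenoid supply to 0.14 for the synthesis genes, and the outlying points are Fdx2 at 0.54, Prodh at 0.44 and Chdh at -0.45.

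The mean profile of the 10 genes over the 6 libraries, in log2 CPM centred per gene, was 0.08, 0.10 and 0.05 in PTMA 1 to 3 and -0.13, -0.04 and -0.06 in vector 1 to 3. Coq9 followed it most closely, with a root mean square difference of 0.049, and Coq4 and Pdss2 least, with 0.14 each. Of 16502 tested genes outside these lists and the cell type marker lists, 287 lay within 0.05 of this profile. The nearest were Timm17b, a subunit of the mitochondrial inner membrane import channel (0.0071), Tssc4, a spliceosome assembly factor (0.016), and Rrp8, a nucleolar methyltransferase of the ribosomal RNA (0.018). Timm17b had 36.4, 36.9 and 36.3 FPKM in PTMA 1 to 3 and 31.2, 35.3 and 32.0 FPKM in vector 1 to 3.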

How the data were processed

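Poly(A) RNA of 6 libraries (3 PTMA, 3 vector) was read from both ends on an Illumina NovaSeq, per the labels' protocols, which speak of an adipose sample although the cells are labelled CD8+ T cells. The authors deposited one table with raw counts per gene and with FPKM, per the file headers. Per the submitters' processing notes, mm8 was a build and Bowtie 0.12.2, StringTie 1.3.0 and HISAT2 2.0 were tools, each without a role. No source used here gives the counting program or its use of strand. Of 27405 identifiers found in GENCODE M21, 99.7% share a gene start or end with it, so the coordinates are those of GRCm38. The table had 0 further per-sample columns.

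Counts were fitted with edgeR 4.0.16 (R 4.3.3; TMM, filterByExpr with a minimum count of 10, quasi-likelihood test, group as the only term, all 6 libraries). P-values were adjusted over 16592 genes by Benjamini-Hochberg at 0.05, and the standard error is the fold change over the square root of F. The fit was checked on simulated counts. Alternatives were other scalings, each library left out in turn, a replicate block, no filter, DESeq2 1.42.0 and limma 3.58.1 on log2(FPKM + 1) or log2(FPKM + 0.1). A count of 0 allows up to 3 counts, 0.0449 to 0.0546 CPM, for counting error only. Replicates differed by far more than sampling noise (chi-square per gene of 16.4 to 76.2). The largest values were those of vector 3, 48 against vector 1 and 76.2 against vector 2.

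The 10 genes and the lists were chosen with earlier results of these data known. Named were the 10 genes, Ptma, and from each list any gene called, the 3 most abundant and the extreme fold changes; annotated genes that overlap a member or start within 1000 bases of it on the other strand; and the 3 genes nearest in profile. One gene that this rule names is not reported here. Dhodh, Coq8b and Nqo1 were named, and the principal transcript length and overlap on CPM were added, after the values were seen. Lengths were taken from GENCODE M21 and promoter windows from RefSeq.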

Additional observations from a re-analysis of the deposited data

How the results depend on the processing

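In all 15 alternatives 0 of the 10 synthesis genes were called, and the Ptma log2 fold change stayed positive and uncalled (0.34 to 0.63). Its adjusted p moved, from 0.951 in the main edgeR fit to 0.101 in edgeR without vector 3 and 0.118 in DESeq2. The lowest adjusted p of the 10 genes moved from 0.951 in the main edgeR fit to 0.194 in edgeR without vector 3. Of the 10 genes, 8 kept a positive log2 fold change in all 15 alternatives. For Coq2, Coq6 and Coq8a, whose groups did not overlap on FPKM or CPM, leaving a library out could hardly change the sign. Coq7 was negative without vector 1 (-3.0e-03), and Pdss2 with libraries scaled to the same sum (-0.01), without PTMA 3 (-0.07), without vector 1 (-0.02) and without vector 3 (-0.01); with a library left out their ranges were -3.0e-03 to 0.18 and -0.07 to 0.09. The median of the 10 was 0.11 to 0.21 when a library was left out. The number of genes called over the whole table was 0 with no filter on low counts, 0 with the replicate block, 0 with limma on log2(FPKM + 1) and no filter, 1 with limma on either log2(FPKM + 1) or log2(FPKM + 0.1) where genes under a mean FPKM of 1 were left out, 47 with DESeq2 (10 higher, 37 lower), and 0 to 4 when a library was left out; the cause was not tested. Deviations of libraries with one number correlated at -0.12, -0.16 and -0.12, which gives no pairing, and under the replicate block 10 of 10 genes were positive with 0 called. Coq7 ranked 9 by level with all exons and 3 with the principal transcript. Every PTMA library was above every vector library for 4 genes on FPKM, against 5.48% of all genes tested, and for 4 on CPM, against 5.39%.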
